A study of Arabidopsis thaliana with 9 samples.

Results

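RCA, SBPASE and PRK are 3 nuclear genes of the Calvin cycle, and their transcripts were followed on 9 Affymetrix ATH1 arrays of Arabidopsis thaliana seedlings. They were chosen by annotation, with earlier results of these data known. They are the probe sets annotated to RCA (AT2G39730), SBPASE (AT3G55800) and PRK (AT1G32060), with 1 probe set each. They make up 3 of the 22810 probe sets on each array, and all 3 passed the filter on low values that left 14404 for testing. None of them is of a kind marked as able to detect several genes.

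The arrays fall into 3 lines of 3 arrays each, iae1, iae2 and B1798. The iae names come from work on Arabidopsis mutants in which the maize transposon Ac excises more often, and the series asks what lies behind the iae1 and iae2 phenotypes. All lines were of the Ler ecotype, at growth stage 1.0, on 1% sucrose, and the RNA came from shoot parts (crown, hypocotyl, cotyledons and the apical meristem bud). The labels name no treatment, give lighting and temperature as not specified, and state no genotype beyond the line name. The series text states that 30 plants were pooled but not whether per line or per array. No label calls B1798 a control, and it served as the reference here as the 1 line not named iae.

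The Calvin cycle runs in the chloroplast stroma and uses the ATP and reducing power of the light reactions to turn carbon dioxide into sugar phosphates. Rubisco fixes the carbon dioxide, and RCA, the Rubisco activase, uses ATP to free Rubisco's active sites of sugar phosphates that block them. SBPASE encodes sedoheptulose bisphosphatase, an enzyme of the branch that rebuilds the cycle's carbon acceptor, and PRK encodes phosphoribulokinase, which makes that acceptor, ribulose bisphosphate, in the last step. Both enzymes are switched on in the light through thioredoxin, and in the dark PRK is held in a complex with glyceraldehyde phosphate dehydrogenase and the small protein CP12.

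Signals are deposited intensities on a linear scale. Probe sets differ in how well they bind, so signals are compared between arrays and never between genes. Fold changes are differences of log2(signal + 16) from a limma model of the 3 lines, and a gene was called at a Benjamini-Hochberg adjusted p below 0.05 over all 14404 tested probe sets. Precision is limited by having 3 arrays a line. In RNA of mixed shoot parts, fewer green cells and less transcript per cell cannot be told apart.

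RCA, the activase gene, was not called in any comparison. Its signal was 2702, 2681 and 2655 on the B1798 arrays, 3205, 3014 and 2585 on the iae1 arrays, and 2746.5, 2519 and 2820 on the iae2 arrays. The B1798 arrays lay within a narrow band, and both iae lines had arrays above and below it. The B1798 mean was 2679 ± 23.5 (SD, n = 3), that of iae1 2935 ± 317 and that of iae2 2695 ± 157. In iae1 against B1798 the log2 fold change was 0.12 ± 0.09 (SE), with a 95% interval of -0.06 to 0.31 (limma adjusted p = 0.457). In iae2 against B1798 it was 0.01 with an interval of -0.18 to 0.19 (limma adjusted p = 0.97), and in iae2 against iae1 -0.12 with an interval of -0.30 to 0.07 (limma adjusted p = 0.399). The upper ends of these intervals were 1.24-fold in iae1 and 1.14-fold in iae2, and they hold for this fit only. With quantile normalization the log2 fold change in iae2 was 0.15 ± 0.08 (SE), also not called (limma adjusted p = 0.235). The low iae1 array was replicate 3, whose scanner background was 67.81 against 53.6 and 53.49 on the other iae1 arrays. Without it the iae1 fold change was 0.21, still not called (limma adjusted p = 0.216). The part of the scanner background in the RCA values was not tested.

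SBPASE, the bisphosphatase gene, rose in iae1. Its signal was 732.9, 802.3 and 732.1 in B1798, 979.2, 941.1 and 893.2 in iae1, and 746, 947.6 and 831.3 in iae2. Every iae1 array was above every B1798 array, while the iae2 arrays spread over the range of both other lines. The B1798 mean was 756 ± 40.3 (SD, n = 3), that of iae1 938 ± 43.1 and that of iae2 842 ± 101. The change in iae1 was 0.31 ± 0.09 (SE) on the log2 scale, a 1.24-fold rise with a 95% interval of 1.09 to 1.41 (limma adjusted p = 0.0458). In iae2 it was 0.15, with an interval of -0.04 to 0.33 (limma adjusted p = 0.283). The direct difference, iae2 minus iae1, was -0.16 with an interval of -0.34 to 0.03 (limma adjusted p = 0.237), so a difference between the iae lines was not shown. The iae1 call passed in 2 of the 9 fits that each left out an array, those without iae2 replicate 1 or 2, and was lost in the others (limma adjusted p up to 0.146). The iae1 arrays also had the highest 25S rRNA signals, 4415 to 5147 against at most 4068 on any other array, and their part in the SBPASE value was not tested.

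PRK, the kinase gene, rose in iae2. Its signal was 755.6, 890.5 and 824.7 in B1798, 850.9, 921.2 and 867.3 in iae1, and 936.9, 1022.7 and 1057.3 in iae2. Every iae2 array was above every array of both other lines, and the iae1 and B1798 arrays overlapped. The B1798 mean was 824 ± 67.5 (SD, n = 3), that of iae1 879.8 ± 36.8 and that of iae2 1006 ± 62.0. The change in iae2 was 0.28 ± 0.08 (SE) on the log2 scale, a 1.22-fold rise with a 95% interval of 1.08 to 1.37 (limma adjusted p = 0.0219). In iae1 it was 0.10, with an interval of -0.07 to 0.27 (limma adjusted p = 0.55). The direct difference, iae2 minus iae1, was 0.19 with an interval of 0.02 to 0.36, and it was not called (limma adjusted p = 0.118). The iae2 call was lost without iae2 replicate 2 (limma adjusted p = 0.0714), without iae2 replicate 3 (0.0837) and without B1798 replicate 1 (0.0805), and it passed in the other 6 of these 9 fits.

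**Figure D1:**
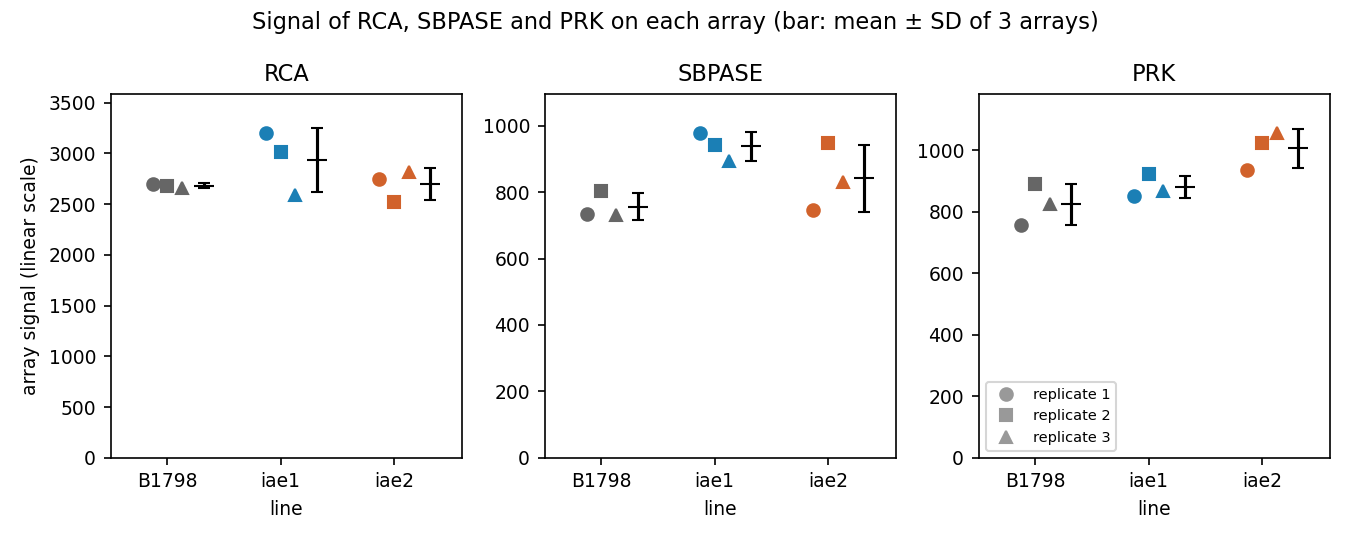
Signal on a linear scale (y axis, from 0) of RCA, SBPASE and PRK on each of the 9 arrays, by line (x axis). Marker shapes give the replicate number, and the black bar is the mean ± SD of 3 arrays. The iae1 arrays of SBPASE, from 893.2 to 979.2, lie above all B1798 arrays, the iae2 arrays of PRK, from 936.9 to 1057.3, lie above all other arrays, and the RCA arrays of the lines overlap.

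The counts among the 3 genes stand beside those over all probe sets. In iae1 against B1798, 1 of the 3 was called, where 7.21% of all tested probe sets were, and in iae2 against B1798 1 of the 3, where 17.8% were. Between the iae lines 0 of the 3 were called by limma (PRK alone had an unadjusted p under 0.05), against 19.6% of all. Arrays all above those of the other line were found for SBPASE in iae1 against B1798, as for 13% of all tested probe sets. They were found for PRK in iae2 against B1798, as for 17.6% of all, and in iae2 against iae1, as for 17.7%. With 3 genes these shares say nothing on whether the Calvin cycle changed more often than other genes. The comparisons of iae1 and iae2 with B1798 share the same 3 B1798 arrays, so their values are not independent.

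The spread among arrays of a line, pooled over the lines, was below the median of all tested probe sets for all 3 genes. It was uneven between lines, with a log2 SD of 0.013 for RCA in B1798, 0.159 for RCA in iae1 and 0.170 for SBPASE in iae2. The residual SD on the log2 scale was 0.10 for RCA, 0.11 for SBPASE and 0.09 for PRK, and the median over all tested probe sets was 0.13. The mean levels ran in the order B1798, iae2, iae1 for RCA and SBPASE, and B1798, iae1, iae2 for PRK. For SBPASE the neighbours in that order overlapped, and its lowest and highest lines did not. For PRK the lowest pair overlapped and the highest line stood apart. Taken one gene at a time over the 3 lines, an exact permutation test of the F statistic over all 1680 assignments of arrays to lines gave p = 0.314 for RCA, p = 0.075 for SBPASE and p = 0.0179 for PRK. The smallest p this exact test can give is 0.00357. The moderated F test of limma, adjusted over all tested probe sets, gave 0.464, 0.0465 and 0.0401 in the same order, and 24.4% of all tested probe sets passed it. For RCA the exact permutation p was 0.0357 without iae1 replicate 3. For SBPASE it was 0.025 without iae2 replicate 1 and 0.0214 without iae2 replicate 2. For PRK it was 0.0607 without iae2 replicate 3 and 0.0643 without B1798 replicate 1.

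Whether the genes changed unequally was asked with their ratio within each array, in which the scaling of the array cancels. The log2 ratio of SBPASE to PRK, set to its B1798 mean, was 0.08, -0.03 and -0.05 on the B1798 arrays, 0.32, 0.15 and 0.16 on the iae1 arrays, and -0.20, 0.01 and -0.22 on the iae2 arrays. Every iae1 array was above every array of the other lines, and the iae2 and B1798 arrays overlapped. The ratio was 0.21 higher in iae1 than in B1798, 0.14 lower in iae2 than in B1798 (log2 difference -0.14), and -0.35 for iae2 minus iae1. The exact permutation test over the 3 lines gave p = 0.0107, or 0.0321 adjusted over the 3 pairs of genes. By this test the signals of SBPASE and PRK differed in their pattern over the lines, by the same signals that gave the calls above. Taken alone, neither gene was called in iae2 against iae1 (limma adjusted p = 0.237 for SBPASE and 0.118 for PRK). Only a scaling common to the whole array cancels in the ratio, and the part of RNA quality in it was not tested. Without iae1 replicate 1 the exact p was 0.0679.

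The other pairs of genes did not pass. For SBPASE to RCA the ratio was 0.18 higher in iae1 and 0.14 higher in iae2 than in B1798 on the log2 scale (exact permutation p = 0.389, 0.389 adjusted over the 3 pairs). One array, iae2 replicate 2, reached 0.41 while the other iae2 arrays were at -0.05 and 0.06. For PRK to RCA it was -0.03 in iae1 and 0.28 in iae2 (exact permutation p = 0.0929, 0.139 adjusted over the 3 pairs), with every iae2 array above all others. Without iae1 replicate 3 the exact p of PRK to RCA was 0.0357.

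**Figure D2:**
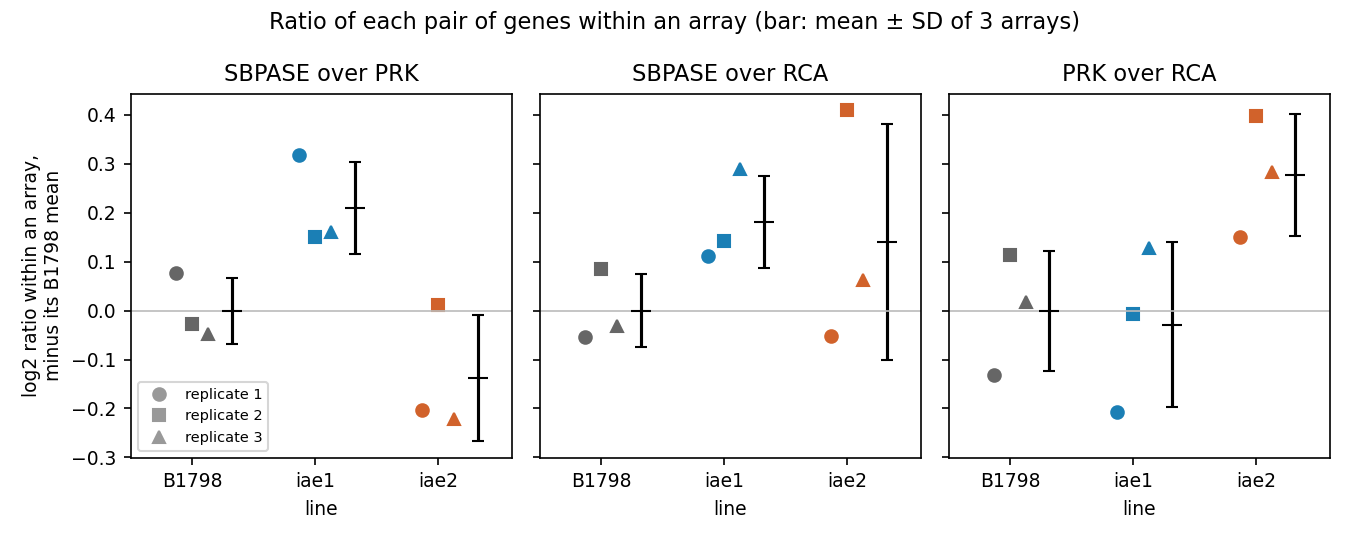
Log2 ratio of each pair of genes within an array, minus its mean over the B1798 arrays (y axis), by line (x axis). Points are arrays, with shapes for the replicate number, and the black bar is the mean ± SD of 3 arrays. For SBPASE over PRK the iae1 arrays lie at 0.15 to 0.32 and the iae2 arrays at -0.22 to 0.01.

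Signs of RNA quality moved with the lines. The 3'/5' signal ratio of the GAPDH control probe sets was 2.27 to 3.11 in B1798, 2.32 to 2.48 in iae1 and 1.73 to 1.98 in iae2, lower on every iae2 array than on any other. The same ratio for actin averaged 2.64 ± 0.175 (SD, n = 3) on B1798 arrays, 2.30 ± 0.154 on iae1 arrays and 1.99 ± 0.271 on iae2 arrays. With the GAPDH ratio as a covariate the iae2 change of PRK was 0.52 ± 0.15 (SE, limma adjusted p = 0.0808) and the iae1 change of SBPASE 0.34 ± 0.10 (limma adjusted p = 0.0595). Both were larger than without it and neither was called. The SE of the PRK change was 0.08 without the covariate. As the ratio was lower on every iae2 array than on any other, RNA quality and line cannot be told apart in iae2 by this fit. The median signal of an array lay between 35.9 and 38.5, lowest on 2 B1798 arrays. With array medians set equal the iae2 change of PRK was 0.23 (limma adjusted p = 0.0902) and the iae1 change of SBPASE 0.27 (limma adjusted p = 0.113).

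The labelled tissue was set against marker genes. LHCB4.1, an antenna protein gene of green tissue, had signals of 3239 to 4300 over the 9 arrays. Of the shoot meristem list, LAS, a gene of axillary meristems, read 28.9 to 42.6, and CLV3, a stem cell peptide gene, read 2.2 to 8.3 and did not pass the filter. The root marker list had 4 tested members. Their summed signal was 4041 to 4508 in B1798, 4010 to 4248 in iae1 and 3372 to 3735 in iae2, most of it from PYK10, a beta-glucosidase gene also known from hypocotyls. The other 3 members were each higher on every iae2 array than on any B1798 array, as were 17.6% of all tested probe sets. They went against the sum, and the median of the 4 in iae2 was 0.30 on the log2 scale. By limma 1 of the 4 was called in each iae line against B1798, where 7.21% of all were in iae1 and 17.8% in iae2. Of the list, PYK10 fell in iae2 (log2 fold change -0.33, limma adjusted p = 0.00898; -0.13 and not called with quantile normalization or with the GAPDH covariate), and AT5G17820, a peroxidase gene, rose in iae1 (0.51, limma adjusted p = 0.0202). The iae1 call of AT5G17820 failed when iae1 replicate 1 or 2 was left out, or B1798 replicate 2 or 3 (limma adjusted p up to 0.0904), without the filter (0.0652) and with the GAPDH covariate (0.0981). EXPA7 and EXPA18, expansin genes of root hairs, had 0.31 and 0.29 in iae2 and did not pass, nor did AT5G17820 there, at 0.34 (limma adjusted p = 0.0695). The part of tissue composition in the PRK and SBPASE values was not tested.

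**Figure D3:**
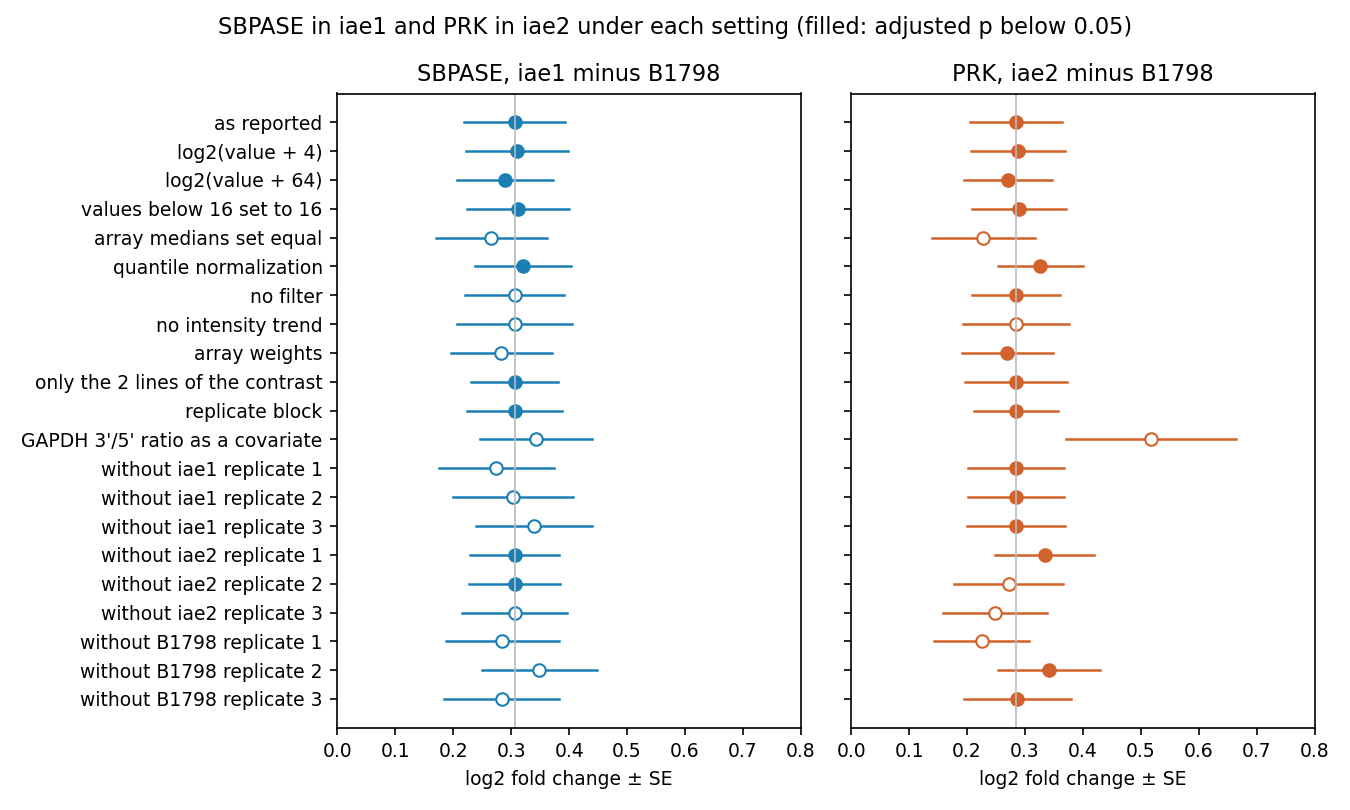
Log2 fold change ± SE (x axis) of SBPASE in iae1 against B1798 (left) and of PRK in iae2 against B1798 (right) under each setting (y axis). Filled points have a limma adjusted p below 0.05, and the grey line is the value as reported. SBPASE stays between 0.27 and 0.35 and PRK between 0.23 and 0.52, while the adjusted p of both crosses 0.05 with several settings.

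The other genes of the cycle were read from lists of loci, matched through the probe annotation. Roles of genes named here only by locus number are background knowledge and do not come from the annotation tables. Of 45 loci for the enzymes of the cycle, their regulation and Rubisco assembly, 14 had a probe set with 1 gene, RCA, SBPASE and PRK included, and all 14 were tested. In iae1 3 were called higher and 0 lower, where 3.8% of all tested probe sets were called higher and 3.42% lower. In iae2 4 were called higher and 0 lower, where 9.77% of all were called higher and 7.99% lower. The median log2 fold change of the 14 was 0.11 in iae1 and 0.22 in iae2, and over all tested probe sets 0.01 and 0.00. Without RCA, SBPASE and PRK the counts were 2 of 11 and 3 of 11, with medians of 0.10 and 0.23. Between iae2 and iae1, 0 of the 14 were called by limma, where 19.6% of all tested probe sets were. An unadjusted p below 0.05 was found for 4 of the 14, and for 4485 of all 14404 tested probe sets. With the GAPDH covariate 1 was called in iae1 and 0 in iae2, where 694 and 393 of all 14404 tested probe sets were. With array medians set equal 1 and 2 were called, where 995 and 2613 of all were. The iae1 count fell to 1 without iae1 replicate 3, B1798 replicate 1 or B1798 replicate 3, where 627, 975 and 826 of all were called. It fell to 0 without iae1 replicate 2 or B1798 replicate 2, where 687 and 617 of all were. The iae2 count fell to 2 without iae2 replicate 2 or 3, where 1873 and 2011 of all were.

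Of the enzymes, AT1G56190, a plastid phosphoglycerate kinase gene, rose in both lines. Its signal was 154.8, 140.3 and 142.7 in B1798, 181.7, 192.1 and 185 in iae1, and 199.6, 195.1 and 179.9 in iae2. All arrays of both iae lines were above all B1798 arrays. The log2 fold change was 0.32 ± 0.08 (SE) in iae1 (limma adjusted p = 0.0212) and 0.36 ± 0.08 in iae2 (limma adjusted p = 0.00478). With the GAPDH covariate neither call passed, at 0.27 in iae1 (limma adjusted p = 0.0985) and 0.19 in iae2 (0.618), and with array medians set equal the iae1 value was 0.28 (0.053). The iae1 call failed when iae1 replicate 2 or 3, or B1798 replicate 2 or 3, was left out (limma adjusted p up to 0.0852). AT5G64380, a fructose bisphosphatase gene, had 0.14 in both lines and did not pass (limma adjusted p = 0.473 and 0.378).

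Of the regulators, AT3G48420, whose product removes a sugar phosphate that inhibits Rubisco, rose in both lines. Its signal was 100.8, 103.7 and 115.3 in B1798, 138.4, 171.9 and 133.7 in iae1, and 158.6, 146.4 and 152.5 in iae2. Here too no iae array fell within the B1798 range. The log2 fold change was 0.41 ± 0.10 (SE) in iae1 (limma adjusted p = 0.0161) and 0.46 ± 0.10 in iae2 (limma adjusted p = 0.00348). The iae1 call failed when iae1 replicate 2, or B1798 replicate 1 or 2, was left out (limma adjusted p up to 0.0827). Its role lies next to that of RCA, for which no change was called.

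The thioredoxin system that activates SBPase and phosphoribulokinase was read by 4 genes. AT2G04700, the catalytic subunit of ferredoxin-thioredoxin reductase, rose in iae2 from 835 ± 57.0 to 982 ± 37.5 (SD, n = 3; log2 fold change 0.23, limma adjusted p = 0.046), a call lost in 8 of the 9 fits that left out an array, all but that without B1798 replicate 3 (up to 0.144). It was also lost in 6 of 11 other settings, among them the fit with the replicate block (limma adjusted p = 0.0632). The thioredoxin genes TRXF2 (0.23 in iae2, limma adjusted p = 0.148) and ATHM2 (0.21, limma adjusted p = 0.146) did not pass in iae2, nor in iae1, where they had -0.02 and -0.06. NTRC, a plastid reductase with its own thioredoxin domain, did not pass, with 0.18 for iae1 (limma adjusted p = 0.344) and 0.12 for iae2 (0.48).

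No Rubisco assembly gene was called in either line. The assembly factors AT5G28500 and AT3G04550 had log2 fold changes of 0.54 (limma adjusted p = 0.0577) and 0.23 (0.255) in iae2, and 0.00 and 0.10 in iae1. The chaperone AT3G47650 had 0.19 in iae2 (limma adjusted p = 0.152) and 0.04 in iae1. Cpn60beta2, a subunit of the chaperonin that folds Rubisco's large subunit, had -0.16 in iae1 (limma adjusted p = 0.393) and -0.11 in iae2 (0.521).

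**Figure D4:**
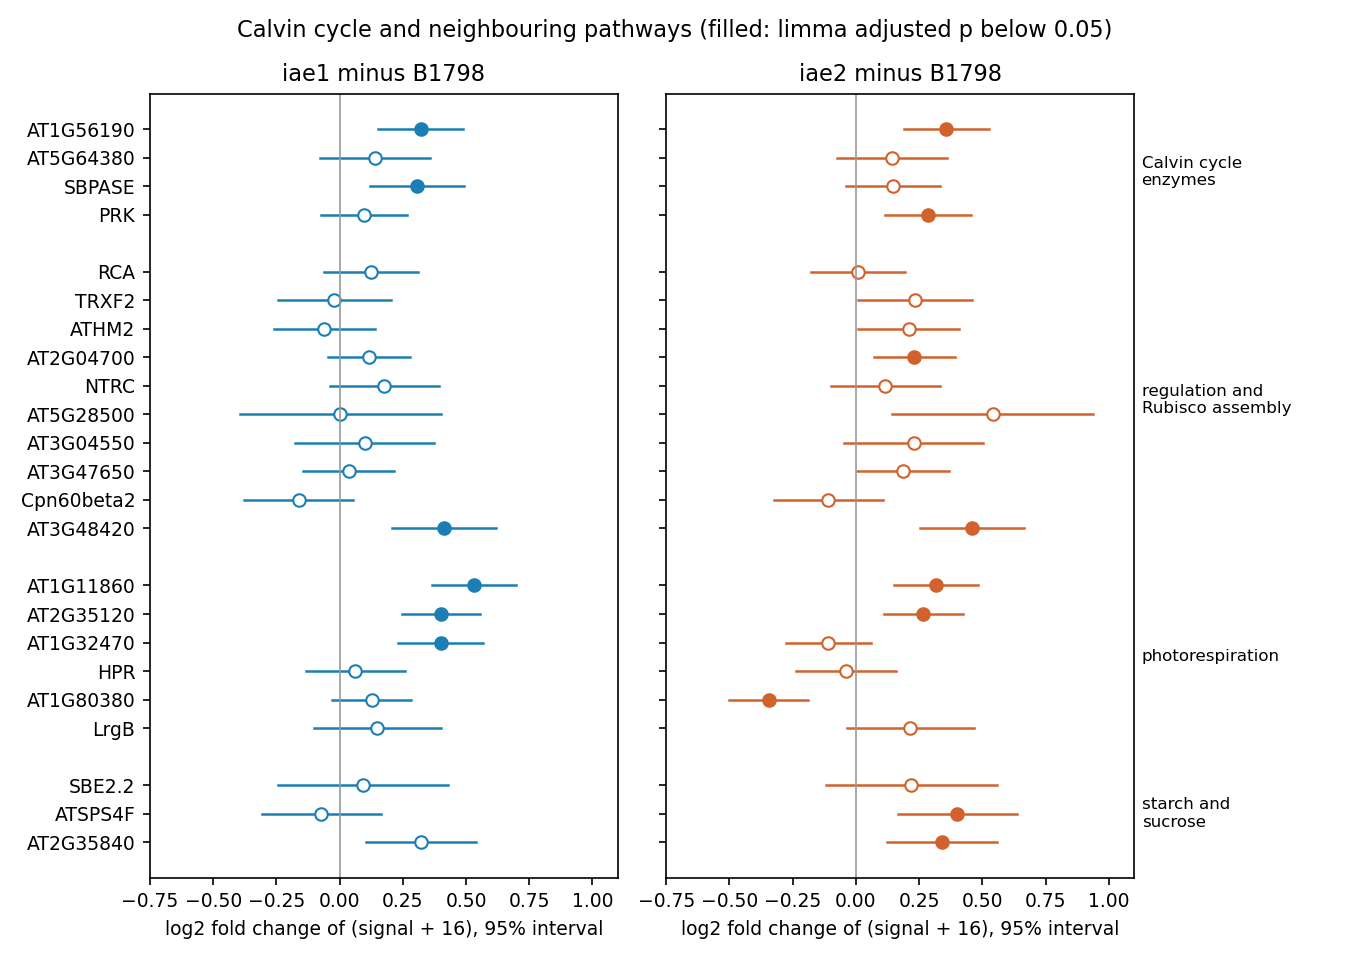
Log2 fold change of (signal + 16) with its 95% interval (x axis) for each tested gene of 4 lists (y axis), in iae1 against B1798 (left) and iae2 against B1798 (right). Filled points have a limma adjusted p below 0.05. AT1G56190, AT3G48420, AT1G11860 and AT2G35120 are filled in both panels, SBPASE and AT1G32470 in the iae1 panel only, and PRK, AT2G04700, AT1G80380, ATSPS4F and AT2G35840 in the iae2 panel only.

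Photorespiration recovers the carbon lost when Rubisco takes oxygen in place of carbon dioxide, and glycine decarboxylase is its mitochondrial step. Of 24 loci 6 were tested, and 3 were called higher in iae1. All 3 encode parts of glycine decarboxylase. The T-protein gene AT1G11860 read 535.6, 593.7 and 529.2 in B1798, 867.3, 806.6 and 748.5 in iae1, and 715.1, 691.1 and 669.9 in iae2. Its arrays did not overlap between any of the lines, and it rose by 0.53 ± 0.08 (SE) in iae1 (limma adjusted p = 0.000501) and 0.32 ± 0.08 in iae2 (0.00977) on the log2 scale. The H-protein gene AT2G35120 rose from 170.1 ± 2.25 (SD, n = 3) to 229.9 ± 2.83 in iae1 (log2 fold change 0.40, limma adjusted p = 0.00295) and to 208 ± 7.51 in iae2 (0.27, limma adjusted p = 0.018). The iae2 call was lost without iae2 replicate 3 (limma adjusted p = 0.0703) and with array medians set equal (0.0728).

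A second H-protein gene, AT1G32470, separated the iae lines. It read 880.2, 735.1 and 753.2 in B1798, 1026.5, 1039.5 and 1065 in iae1, and 724.5, 705.5 and 757.3 in iae2. Every iae1 array was above all others, and the iae2 and B1798 arrays overlapped. The log2 fold change was 0.40 in iae1 (limma adjusted p = 0.00551) and -0.11 in iae2 (0.39), and iae2 minus iae1 was -0.51 (limma adjusted p = 0.000279). AT1G80380, the glycerate kinase gene whose product returns carbon to the Calvin cycle, fell in iae2 from 297 ± 15.4 (SD, n = 3) to 230.4 ± 9.41 (log2 fold change -0.34, limma adjusted p = 0.00376) and had 0.13 in iae1 (0.353). In all, 3 of 6 were called higher in iae1, and 2 higher and 1 lower in iae2, where 3.8% of all tested probe sets were called higher in iae1, and 9.77% higher and 7.99% lower in iae2. HPR, hydroxypyruvate reductase, had 0.06 and -0.04, and LrgB, a plastid glycolate and glycerate carrier gene 2 places from PRK in gene order, had 0.15 and 0.21, without passing. The median over the 6 genes was 0.27 in iae1 and 0.09 in iae2.

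Of 17 loci for starch and sucrose synthesis 3 were tested, and 2 were called higher in iae2 and 0 in iae1 by limma (1 in iae1 at an unadjusted p below 0.05), where 9.77% of all tested probe sets were called higher in iae2 and 3.8% in iae1. The sucrose phosphate synthase gene ATSPS4F rose in iae2 from 55.5 ± 8.22 (SD, n = 3) to 78.2 ± 6.23 (log2 fold change 0.40, limma adjusted p = 0.0195). That call failed when iae2 replicate 1 or 3, or B1798 replicate 2, was left out (up to 0.0911). It had -0.07 in iae1 (limma adjusted p = 0.77). The sucrose phosphate phosphatase gene AT2G35840 rose in iae2 from 66.2 ± 1.4 to 88.6 ± 12.0 (0.34, limma adjusted p = 0.0312) and had 0.32 in iae1 (0.0733), the iae2 call failing when iae2 replicate 2 or 3, or any 1 B1798 array, was left out (up to 0.134), with equal medians (0.0678) and without the filter (0.0581). SBE2.2, a starch branching enzyme gene, had 0.09 and 0.22 and did not pass.

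The photosystem and antenna list, closest in function to the cycle, had 7 tested genes, of which 1 was called, the antenna gene LHCB4.2 in iae2 (log2 fold change 0.59, limma adjusted p = 0.000188). In iae2 9.77% of all tested probe sets were called higher, so 1 of 7 is near that share. In iae1 0 of the 7 were called, where 7.21% of all were. LHCB4.2 had -0.25 there (limma adjusted p = 0.0978). Its iae1 arrays were all below its B1798 arrays, as for 1683 of all 14404 tested probe sets. The medians of the list were -0.08 in iae1 and -0.08 in iae2, below 0 where those of the Calvin cycle lists were above it. The difference between the lists was not tested. With the GAPDH covariate LHCB4.2 was the only list gene still called in iae2. PRK and the other list genes called there without the covariate were not. Of all 14404 tested probe sets 393 were called in iae2 in that fit, against 2558 without the covariate. Most calls over all probe sets were thus lost too, and the loss was not particular to the list genes. The standard errors were larger in that fit, and several fold changes did not shrink. AT3G48420 had 0.64 ± 0.20 (SE), AT1G80380 -0.52 ± 0.15, ATSPS4F 0.48 ± 0.23 and AT1G11860 0.33 ± 0.16, while AT1G56190 had 0.19 ± 0.16 and PYK10 -0.13 ± 0.13.

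The tested probe sets most like each gene over the 9 arrays were taken among 7852 others with 1 gene, by Pearson's r of log2(signal + 16). These values are descriptions over arrays that share their lines and scaling. For RCA they were Hop2, a co-chaperone gene (r = 0.91), AT5G20130 (0.89), AT5G63280 (0.88), MT1C, a metallothionein gene (0.88), and LPA19, a photosystem assembly gene (0.86). Of these 0 were called in any comparison by limma, with 1 at an unadjusted p below 0.05 in iae1 and 1 between the iae lines. For SBPASE they were AT5G04830 (r = 0.93), AT3G46280 (0.91), AT1G11380 (0.90), AT2G24020 (0.90) and OTP43, a mitochondrial RNA splicing gene (0.89). AT5G04830 rose in iae1 from 259 ± 9.69 (SD, n = 3) to 452 ± 39.4 (log2 fold change 0.76, limma adjusted p = 0.000182), and had 0.32 in iae2 (0.0393), a call lost in 5 of the 9 fits that left out an array, without iae1 replicate 2, iae2 replicate 2 or any 1 B1798 array, and in 5 of 11 other settings. The other 4 were not called in any comparison. Over all tested probe sets 7.21% were called in iae1, 17.8% in iae2 and 19.6% between the iae lines. The genes were picked by r over arrays that hold the differences between lines. Calls that follow the pattern of SBPASE were thus partly built into the choice and add no evidence for it.

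For PRK the most alike were AT5G18590 (r = 0.95), AT1G24040 (0.94), HEMA2, a gene of tetrapyrrole synthesis (0.94), AT5G54970 (0.93) and FRO1, a subunit gene of mitochondrial complex I (0.93). Of these 5, 3 were called in iae2, where 17.8% of all tested probe sets were. The choice by likeness to PRK, which was highest on the iae2 arrays, favoured such calls, and they add no evidence for its rise. HEMA2 rose in iae2 from 25.5 ± 5.60 (SD, n = 3) to 54.9 ± 3.29 (log2 fold change 0.78, limma adjusted p = 0.000365). AT1G24040 rose there by 0.53 (0.00755) and FRO1 by 0.30 (0.0104). With the GAPDH covariate AT1G24040 had 0.88 (limma adjusted p = 0.0751) and FRO1 0.36 (0.272), and with array medians set equal FRO1 had 0.25 (0.0515), none of them called. Neither SBPASE nor RCA was among the 5 most like PRK.

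The genes around the 3 loci gave a further comparison. Within 5 places of each in gene order, 8 genes were tested, with log2 fold changes of -0.22 to 0.15 in iae1 and -0.25 to 0.29 in iae2. In iae1 0 were called by limma, where 7.21% of all tested probe sets were. An unadjusted p below 0.05 was found there for 1 of the 8, and for 3070 of all 14404. In iae2 1 was called, where 17.8% of all were. It was EPC1, which lies 3 places from SBPASE and fell by 0.25 on the log2 scale (limma adjusted p = 0.0323). This window was chosen after the values of the 3 genes were seen.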

How the data were processed

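Total RNA of 3 lines was hybridised to 9 ATH1 arrays, biotin-labelled and primed with oligo-dT per the labels. The deposited values are intensity signals on a linear scale, with a mean of 100 on each array after trimming 2% of probe sets at each end, so the authors had scaled them. How probes were summarised into a probe set signal is not stated in the labels or headers used.

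The 64 AFFX controls were left out. A probe set was tested when it reached the 40th percentile of its array on at least 3 arrays. limma 3.58.1 (R 4.3.3) fitted log2(value + 16) to the 3 line means, using an intensity trend and Benjamini-Hochberg adjustment. Ratios and single genes were tested by exact permutation of the F statistic over the 3 lines in Python 3.11.15. The model was tested on simulated data. The labels do not say that replicates came from separate cultures, so p-values rest on a spread between arrays that may be technical only.

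Genes were named from GEO's platform annotation (13513 probe sets with 1 gene, 503 with several) and loci from a TAIR10.1 gene table. The brightest probe set stood for a gene with several. No genome build is named, so no coordinates are given. Named genes are RCA, SBPASE and PRK, all tested genes of both Calvin cycle lists, called genes of the other lists, and the 5 most alike probe sets. Uncalled genes of other lists and the neighbour EPC1 fall outside this rule and were named after their values were seen. The genes and lists were chosen with earlier results of these data known. Alternatives changed the pseudocount, floor, normalization, filter, trend, weights, lines fitted, block and covariate, and left out each array.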

Additional observations from a re-analysis of the deposited data

Results flagged for a closer look

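For 9 genes named in the report the change in iae2 differed from that in iae1 by limma's direct contrast of the lines, in values of log2, iae2 minus iae1. Of the photorespiration genes these were AT1G32470 (-0.51, limma adjusted p = 0.000279) and AT1G80380 (-0.47, limma adjusted p = 0.000295), which passed under all 20 alternative settings. ATSPS4F differed by 0.47 (limma adjusted p = 0.00667), a call lost with the GAPDH covariate, where it was 0.53 ± 0.18 (SE, limma adjusted p = 0.0998), and LHCB4.2 by 0.85 (limma adjusted p = 5.39e-06). PYK10 differed by -0.25 (limma adjusted p = 0.0385), which was lost without any iae1 array or iae2 replicate 1 or 2 (up to 0.138), with quantile normalization (0.219), without the filter (0.109), without the trend (0.067) and with the covariate (0.596). Of the genes most like SBPASE, AT5G04830 differed by -0.45 (limma adjusted p = 0.00488), and by -0.35 with the covariate, where it was not called (0.227). Of those most like PRK, AT1G24040 differed by 0.53 (limma adjusted p = 0.00754), HEMA2 by 0.66 (limma adjusted p = 0.00138) and FRO1 by 0.26 (limma adjusted p = 0.0237), the last lost without iae1 replicate 1 or 3 or iae2 replicate 2 or 3 (up to 0.0928), with equal medians (0.0544), without the trend (0.0585) and with the covariate (0.155). RCA, SBPASE and PRK had no such call. With 19.6% of all tested probe sets called in this contrast, such differences were common. The genes most like SBPASE or PRK were picked by values that hold these differences, so their calls here were partly built into the choice.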

How the results depend on the processing

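No fold change of RCA, SBPASE or PRK that was called changed sign under any setting tried. The SBPASE call in iae1 was lost with array medians set equal (log2 fold change 0.27), without the filter (0.31), without the intensity trend (0.31), with array weights (0.28) and with the GAPDH covariate (0.34). Leaving out single arrays it ran from 0.27 to 0.35. The PRK call in iae2 was lost with equal medians (0.23), without the trend (0.28) and with the covariate (0.52), and ran from 0.23 to 0.34 when single arrays were left out. Without the filter and without the trend the fold changes themselves did not move. With the covariate both fold changes were larger, and so were their SEs, 0.15 against 0.08 for PRK and 0.10 against 0.09 for SBPASE. With equal medians both fold changes were smaller, and with array weights that of SBPASE was. What lay behind these shifts was not tested. RCA in iae2, never called, had -0.05 with equal medians and 0.15 with quantile normalization. With equal medians the exact permutation p of PRK over the lines was 0.129. Leaving out single arrays, these exact p-values ran from 0.0357 to 0.786 for RCA, 0.0214 to 0.139 for SBPASE, 0.00714 to 0.0643 for PRK, 0.00357 to 0.0679 for SBPASE to PRK and 0.0357 to 0.225 for PRK to RCA.

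Same-numbered arrays did not deviate together (correlations of -0.15 to 0.14). The fit with the replicate block gave 0.31 for SBPASE in iae1 (limma adjusted p = 0.0424) and 0.28 for PRK in iae2 (0.0155), and changed no call of the 3 genes. Of the other genes' calls it lost 1, that of AT2G04700 in iae2 (0.0632). Over all probe sets 1039 were called in iae1, 2558 in iae2 and 2825 between the iae lines. These became 393 in iae2 and 1102 between the lines with the covariate, and 617 to 687 in iae1 without B1798 replicate 2 or any 1 iae1 array. Of the 14 Calvin cycle genes, 1 to 3 were called in iae1 and 0 to 5 in iae2 under the other settings. Over all probe sets 694 to 1156 and 393 to 2649 were. Without single arrays 0 to 3 and 2 to 4 of the 14 were called, and 617 to 1027 and 1873 to 2521 of all probe sets. Between the iae lines 0 to 3 of the 14 were called over all these settings, and 1102 to 3177 of all probe sets.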
